A study of Mus musculus with 24 samples.

Results

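Silencing of P16Ink4a in Cd31+ cells of mouse liver, labelled as endothelial, was described from 6 of the 24 RNA sequencing libraries of the study, 3 with P16 shRNA and 3 with nc shRNA (non-coding hairpin). The 6 libraries were chosen by the construct and the cell population named in their labels, and not by any measured value. The study sequenced Cd31+ cells and Cd146+ liver endothelial sinusoidal cells after transduction with 4 lentiviral constructs, to ask how these cells respond when P16Ink4a is lowered or raised. Cd31+ cells were taken from livers of C57BL/6 mice, stated to be female and 3 months old, by collagenase digestion and magnetic beads against Cd31, and grown in RPMI with fetal calf serum. Both hairpins were delivered in the pLKO.1 vector by virus made in HEK 293 cells, a human embryonic kidney line, and the RNA was collected 1 week later. No other genetic change is described for either group. Each arm carried a single construct, so that loss of P16Ink4a and any other action of this hairpin cannot be told apart. The sources do not say whether replicates came from separate animals or cultures, and p-values therefore measure the spread between these libraries.

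P16Ink4a, encoded by Cdkn2a, binds the cyclin-dependent kinases CDK4 and CDK6 and keeps them from phosphorylating the retinoblastoma protein RB, which then holds E2F transcription factors inactive and blocks entry into S phase. The protein accumulates in aged and senescent cells and is widely used as a senescence marker. Endothelial cells also sense nucleic acids and respond to interferon. In that pathway the receptors activate the kinases JAK1 and TYK2, these phosphorylate STAT proteins such as STAT2, and a complex that holds STAT2 and IRF9 binds the interferon-stimulated response element (ISRE) before antiviral and antigen-presenting genes.

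The 6 libraries held from 15409767 to 21865306 gene reads. A gene with no read could still have had up to 3, which is 0.137 to 0.195 CPM and covers counting error only. Levels are given as CPM (counts scaled to the library size and TMM-normalized) in the order of replicates 1, 2 and 3. Changes are log2 fold changes of P16 shRNA over nc shRNA with their standard error (SE), and the two-sided p-values are those of edgeR's quasi-likelihood test, adjusted after Benjamini and Hochberg across the 14358 genes that had enough reads. Enough reads in the 3 libraries of 1 group sufficed, so a gene near 0 in controls could be tested through the silenced libraries alone. The fit without a block gave 55 higher (0.383%) and 131 lower genes (0.912%) at an adjusted p under 0.05, and all 186 had groups that did not overlap. Before adjustment, 1366 higher (9.51%) and 1477 lower genes (10.3%) had a p under 0.05 in this fit. Libraries of the same number varied together, so the replicate number was also fitted as a term (replicate block), which gave 1281 higher (8.92%) and 1422 lower genes (9.90%), all 186 included. In the text, rose and fell mark an adjusted p under 0.05 with the replicate block, and a gene that also passed without the block is named as such. The number of genes without overlap of the groups was 2025 higher (14.1%) and 1902 lower (13.2%). The median log2 fold change over all genes was 0.00 without and 0.01 with the block.

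Markers of the labelled cell type were low relative to those of mesenchymal cells. Summed over the list, endothelial markers had 150.2 to 312 FPKM (reads scaled to gene length and library size, as deposited by the authors) with nc shRNA and 99.2 to 199.6 FPKM with P16 shRNA, and mesenchymal markers 4595 to 6758 and 4525 to 7699 FPKM. Per length, Pecam1, which encodes Cd31, had a mean of 15.9 FPKM over the 6 libraries, Cdh5 17.6, Col1a1 2288 and Acta2 1285 FPKM. Of the sinusoidal markers, Stab2 and Clec4g had too few reads to be tested. Stab1, Lyve1 and Fcgr2b were tested, with log2 fold changes of -0.26, 0.96 and -0.71 without the block. Pecam1 was at 91.1, 101 and 143 CPM in controls and at 60.8, 109.7 and 93.5 CPM after silencing, with groups that overlapped (-0.36, SE 0.15, adjusted p = 0.126 with the block, edgeR). With the block 2 of 24 tested endothelial markers rose and 3 fell (8.33% and 12.5%, against 8.92% and 9.90% of all genes). Their median log2 fold change was -0.30 without the block, and -0.75 to 0.43 when 1 library was left out. Mcam, which encodes Cd146, fell from 76.1, 117 and 152 to 31.8, 52.5 and 63.3 CPM (-1.23, SE 0.09, adjusted p = 0.000141 with and 0.127 without the block, edgeR), and Flt4 rose by 1.24. In bulk samples fewer cells of a type and less RNA per cell cannot be told apart. Of 17 mesenchymal markers 4 rose and 3 fell (23.5% and 17.6%). Macrophage markers summed to 34.2 to 118.3 FPKM in controls and 25.0 to 91.1 FPKM after silencing, and of 15 tested macrophage markers 1, Cd14, rose and 1, Lyz2, fell with the block. The Kupffer cell markers Clec4f, Timd4 and Vsig4 had too few reads to be tested, and Adgre1 stood at 0.885 to 5.46 CPM. Hepatocyte and lymphoid markers summed to less than 1 FPKM in every library. Cholangiocyte markers summed to 54.2 to 481 and 116 to 577 FPKM, highest in both libraries of replicate 1, where Spp1 gave most of the sum. The part of these cells in the results was not tested. Although the mice are stated to be female, Xist had 0 to 4 reads per library and the Y-linked Ddx3y 99.7 to 168 CPM, in both groups alike.

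Cdkn2a, listed at 89192708 to 89212890 on the minus strand of chromosome 4 in the deposited table, stood at 57.1, 35.8 and 74.8 CPM with nc shRNA and at 9.11, 5.07 and 5.62 CPM with P16 shRNA. All 3 silenced libraries lay below all 3 controls, and 11.8% of the control mean was left. The log2 fold change was -3.08 (SE 0.35, adjusted p = 0.0218 without and 0.000243 with the block, edgeR), and the exact permutation test over the 6 libraries gave a two-sided p of 0.1, the smallest that 3 against 3 allow. Counts per gene do not separate p16Ink4a from p19Arf, the other product of this locus. Of the 6 tested genes for inhibitors of cyclin-dependent kinases, 1 rose and 2 fell, Cdkn2a among them. The shares were 16.7% and 33.3%, against 8.92% and 9.90% of all genes. Cdkn1a, the p53-induced inhibitor p21, was at 423, 517 and 460.3 CPM in controls and at 321, 440.4 and 352 CPM after silencing, lower in each pair although the groups overlapped (-0.34, SE 0.09, adjusted p = 0.0310 with and 0.280 without the block, edgeR). Cdkn2d, which encodes p19Ink4d, rose slightly, by 0.47 (SE 0.12, adjusted p = 0.0321 with the block, edgeR). Cdkn2b, which lies next to Cdkn2a and encodes p15Ink4b, was at 78.5, 46.4 and 75.6 CPM against 140.2, 40.1 and 67.2 CPM, higher in replicate 1 and lower in the other two (0.16, SE 0.21, adjusted p = 0.652 with the block, edgeR).

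Downstream of P16Ink4a, 3 of the 21 tested genes of the RB and E2F axis rose and 4 fell. The shares were 14.3% and 19.1%, against 8.92% and 9.90% of all genes. The D-type cyclins, the partners that activate CDK4 and CDK6, moved in different directions. Ccnd1 fell from 325, 409 and 590.2 to 97, 190.4 and 199 CPM, with every silenced library below every control (-1.47, SE 0.13, adjusted p = 0.000277 with and 0.100 without the block, edgeR). Ccnd2 fell from 1194, 1220.0 and 1700.2 to 642, 955 and 868 CPM (-0.74, SE 0.13), again without overlap, whereas Ccnd3 rose by 0.40 (SE 0.09) with groups that overlapped. Among the pocket proteins, the repressors that bind E2F, Rbl2 (p130) fell from 39, 35.7 and 38 to 16.4, 16.4 and 15.7 CPM and also passed the test without the block (-1.22, SE 0.10, adjusted p = 0.0115, edgeR). Rb1 fell from 35.6, 28.3 and 27.6 to 22, 23.1 and 23 CPM (-0.41, SE 0.12), and Rbl1 (p107) had a change of 0.13 (SE 0.13, adjusted p = 0.546 with the block, edgeR). Every silenced library lay below every control for Rbl2 and for Rb1. Of the E2F factors, E2f1, an activator, rose from 31.6, 36.8 and 35 to 40.9, 46.4 and 47.7 CPM and E2f4, which acts mainly as a repressor, from 45, 32.6 and 40.3 to 52.5, 50.8 and 49.8 CPM, both without overlap. The kinases themselves did not pass either fit, and without the block their changes were 0.18 for Cdk4, -0.09 for Cdk6 and 0.09 for Cdk2 (SE 0.16, 0.29 and 0.12). With pair 1, 2 or 3 left out of the block, 6, 0 and 0 genes of this list were called higher and 3, 3 and 2 lower.

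**Figure D1:**
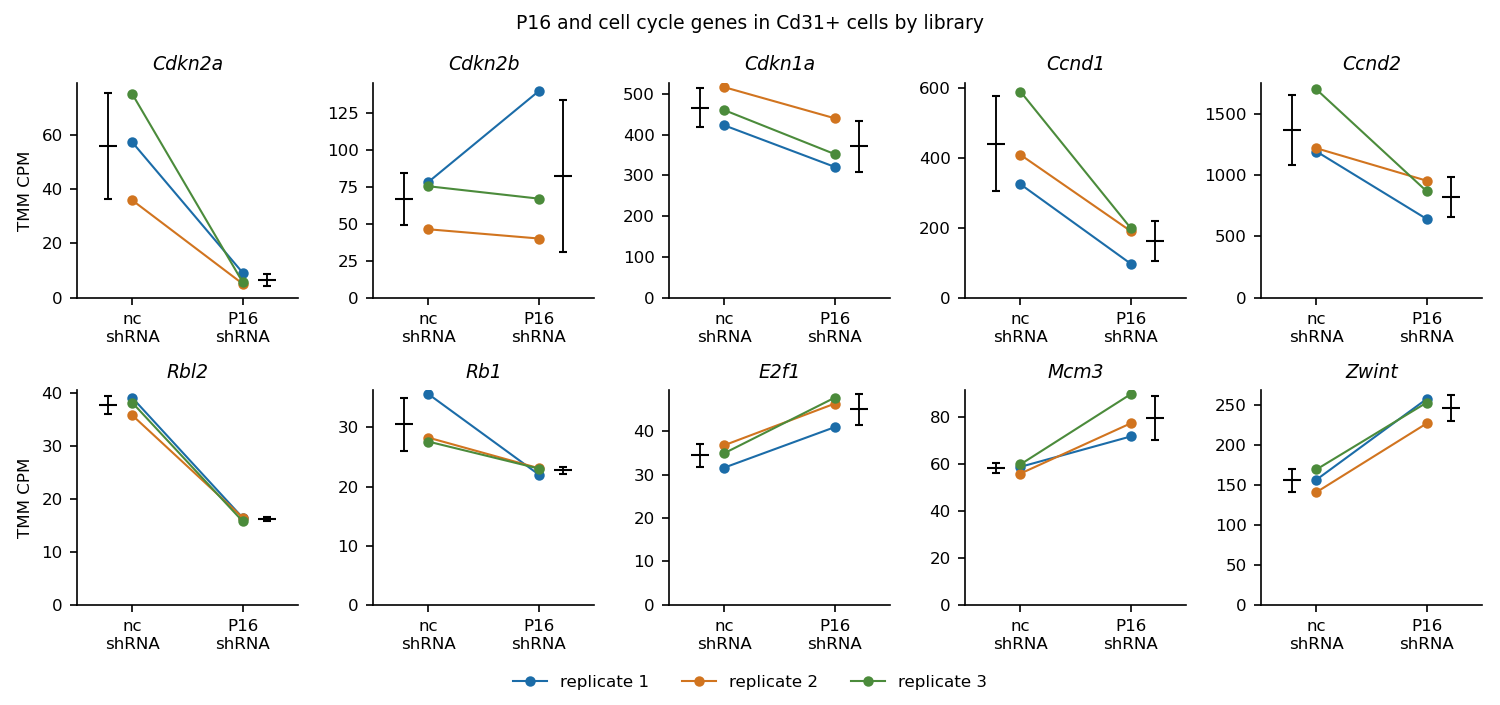
TMM-normalized CPM of P16 and 9 cell cycle genes in Cd31+ cells with nc shRNA (left) and P16 shRNA (right). Each coloured line joins the libraries of 1 replicate number, and the black bars give the mean and SD of the 3 libraries. Cdkn2a, Ccnd1, Ccnd2, Rbl2 and Rb1 were lower in every silenced library than in any control, while E2f1, Mcm3 and Zwint were higher, and Cdkn2b crossed.

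Some genes for DNA replication rose by small amounts. Of 40 tested genes, 11 rose (27.5%, against 8.92% of all genes) and none fell with the block, the median was 0.30 without the block, and 0 passed without it, where 14 had an unadjusted p under 0.05. Of the genes for the 6 subunits of the MCM helicase, which unwinds DNA at origins, Mcm2, Mcm3 and Mcm5 rose, and Mcm4, Mcm6 and Mcm7 did not pass (0.16, 0.25 and 0.35). Mcm3 stood at 58.6, 55.8 and 59.7 CPM in controls and 71.5, 77.1 and 89.5 CPM after silencing, and Mcm2 at 67.7, 57.8 and 53.9 against 80.5, 81.2 and 91 CPM, in both cases without overlap (0.45 and 0.50, SE 0.10 and 0.11). Chaf1a, which loads histones behind the fork, rose from 20.3, 23.2 and 27.1 to 31.1, 34.8 and 37.5 CPM (0.56, SE 0.10, adjusted p = 0.00720 with the block, edgeR). Gmnn, which blocks a second round of licensing, and Rrm2, the regulatory subunit of ribonucleotide reductase, rose by 0.60 and 0.43 (SE 0.13 and 0.09). These calls needed pairs 2 and 3, since 0 of the genes passed in the block without pair 3 and 0 without pair 2, against 23 without pair 1. The median difference within a pair, on the log2(CPM + 0.5) scale, was 0.11, 0.25 and 0.47 in pairs 1, 2 and 3, positive in each.

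A smaller share of the genes of mitosis rose. Of 44 tested genes, 8 rose with the block (18.2%, against 8.92% of all genes) and none fell, with a median of 0.22. Zwint, a kinetochore protein, passed without the block as well and rose from 156, 141 and 169 to 257, 227 and 253 CPM (0.66, SE 0.11, adjusted p = 0.0462, edgeR). Mastl, the kinase that keeps the phosphatase PP2A off mitotic substrates, was at 16, 10.7 and 10.2 CPM in controls and at 18.8, 24.4 and 22.2 CPM after silencing (0.85, SE 0.19), and the mitotic kinase Aurka and the chromosomal passenger Incenp rose by 0.49 and 0.43 (SE 0.11 and 0.09). For Aurka the groups did not overlap. The median difference within a pair was -0.11 in pair 1, 0.27 in pair 2 and 0.44 in pair 3, so that pair 1 did not share the direction of the list. Without pair 1 the block called 30 genes higher, and without pair 2 or pair 3 it called 1 and 1. Of 25 tested targets of p53, 8 fell with the block (32%, against 9.90% of all genes) and 1, Plk2, rose. Perp, a p53 effector in the membrane, fell from 25.1, 32.8 and 24.4 to 11.3, 13.6 and 10.1 CPM and Trp53inp1, a partner of p53, from 192, 199 and 198 to 90.8, 117 and 104 CPM. Both passed without the block too (adjusted p = 0.0301 and 0.0223, edgeR). Mdm2, which marks p53 for degradation, and Ccng1, cyclin G1, fell by less (-0.55 and -0.44, SE 0.12 and 0.12), and without pair 3 the block left 2 of these genes lower.

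Promoters of the replication genes were searched in the RefSeq table of GRCm38.p6, which holds 250 bases before to 50 after each start, for the E2F words TTTCCCGC, TTTCGCGC, TTTGCCGC and TTTGGCGC on both strands. Matches can overlap each other. A promoter was found for 10329 of the 14355 symbols tested. At least 1 word stood in 2.26% of all 32851 promoters and in 4.72% of the tested genes, and in 13 of the 31 replication genes with a promoter (41.9%). These genes were listed as known parts of the replication machinery, many of them E2F targets, so that the share describes the list. Among genes called higher with the block the share was 4.34%, and among those called lower 3.95%. A match describes the sequence and is not evidence of binding. The following stretches of 30 bases, given on the strand of the gene with the word in capitals, show it before the starts of 3 replication genes.
Mcm5, chr8:75109349-75109378 on the plus strand, word ending 141 bases before the start: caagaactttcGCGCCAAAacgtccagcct
Mcm6, chr1:128359734-128359763 on the minus strand, 39 bases before the start: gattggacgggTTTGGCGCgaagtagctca
Orc1, chr4:108579416-108579445 on the plus strand, 19 bases before the start: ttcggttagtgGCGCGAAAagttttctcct
Of these 3, Mcm5 rose by 0.51 (SE 0.14), while Mcm6 and Orc1 had changes of 0.25 and 0.45 (adjusted p = 0.211 and 0.164 with the block, edgeR).

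Interferon-stimulated genes supplied all 10 of the largest rises with the block, namely Oas1g, Oas1a, Zbp1, Oasl2, Cxcl10, Isg15, Ifit1, Ifi44, Oas2 and Usp18. This ranking took genes without overlap of the groups and with a mean of at least 5 CPM in the higher group. It therefore favours genes that are low in controls, where a fold rests on few reads. The control means of the 10 genes lay between 0.086 CPM for Oas1g and 5.22 CPM for Ifit1. The pathway is given here in the order in which the signal runs. None of the 20 genes for interferons had enough reads to be tested. Their summed counts were 0, 3 and 0 reads with nc shRNA and 0, 0 and 9 reads with P16 shRNA, and the 9 reads of replicate 3 lay on Ifnb1 (2 reads), Ifne (2), Ifng (2), Ifna2 (1), Ifna7 (1) and Ifna16 (1). Where the sum was 0, up to 3 reads remain possible. Among the receptor genes named here, those that did not pass had changes of -0.13 for Ifnar1, -0.06 for Ifngr1 and 0.03 for Ifngr2 (SE 0.10, 0.09 and 0.09). Ifnar2, a chain of the receptor for type I interferons, rose by 0.32 (SE 0.09, adjusted p = 0.0466 with the block, edgeR). Jak1 fell from 259, 269 and 244 to 181, 211 and 183 CPM without overlap, and Tyk2 and Jak2 did not pass (-0.19 and -0.08).

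Transcription factors of the pathway rose. Irf9 stood at 13.6, 18.1 and 30.2 CPM in controls and at 55.8, 53.1 and 104 CPM after silencing, so that the lowest silenced library exceeded the highest control (1.78, SE 0.11, adjusted p = 7.7e-05 with and 0.0909 without the block, edgeR). Stat2 rose from 14, 22.3 and 27.2 to 51.7, 55.5 and 125 CPM (1.80, SE 0.16). Irf7, which amplifies the response, went from 1.47, 3.72 and 6.69 to 19.2, 21.1 and 88.6 CPM (3.29, SE 0.25). In each of these genes replicate 3 was the highest library of its group, and the groups did not overlap. Stat3 (0.02) and Irf3 (0.06), which act beside this complex, did not pass. Of the inhibitors of the pathway, Usp18, a protease that removes ISG15 and blocks the receptor, rose from 0.201, 0.874 and 4.70 to 23.4, 14.7 and 90.1 CPM (4.54, SE 0.31), and Socs1 and Socs3 rose by 1.32 and 0.49. In all, 10 of the 22 tested genes for receptors and signalling rose with the block (45.5%, against 8.92% of all genes), 1 fell, and the median was 0.03 without the block and between -0.01 and 0.16 when 1 library was left out.

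**Figure D2:**
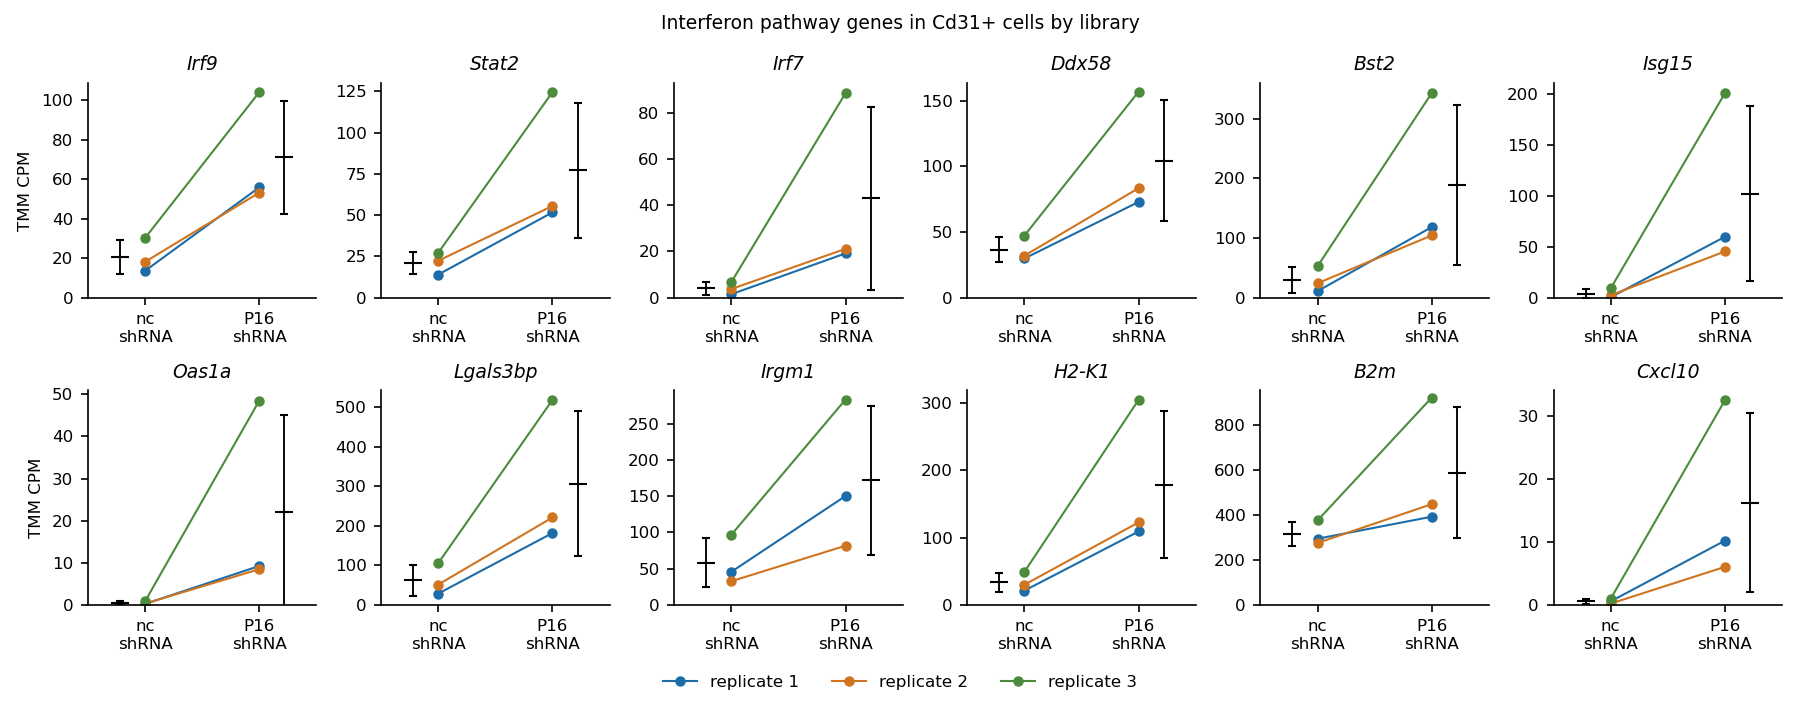
TMM-normalized CPM of 12 genes of the interferon pathway in Cd31+ cells. Coloured lines join libraries of the same replicate number, and black bars give the mean and SD of 3 libraries, cut at 0. The silenced library lies above its paired control in every panel, and replicate 3 is the highest of its group in each.

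Sensors of nucleic acids rose in 11 of 21 tested genes with the block (52.4%, against 8.92% of all genes), and none fell. Ddx58 (RIG-I) and Ifih1 (MDA5), which detect double-stranded RNA in the cytosol, rose from 29.8, 31.9 and 47.2 to 72.9, 83.4 and 157 CPM and from 10.9, 9.65 and 16 to 21, 22.4 and 70.00 CPM (1.47 and 1.46, SE 0.11 and 0.22). Zbp1, a sensor of Z-form nucleic acid that can start necroptosis, was at 0, 0.184 and 0.664 CPM in controls and at 5.24, 2.17 and 30.6 CPM after silencing (5.32, SE 0.42). Its control counts were 0, 4 and 12 reads, so that the fold rests on few reads. Adar, which edits double-stranded RNA, and Sting1, the adaptor of cytosolic DNA sensing, rose by 0.94 and 0.66 (SE 0.10 and 0.10). The downstream kinase Tbk1 and the adaptor Mavs did not pass, with changes of -0.08 and -0.15 (SE 0.09 and 0.11).

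Among the antiviral effectors, 42 of 51 tested genes rose with the block (82.3%, against 8.92% of all genes) and none fell. In 40 the 3 silenced libraries all lay above the 3 controls, as they did in 14.1% of all genes. The median log2 fold change was 2.32 without the block. Genes near 0 in controls, such as Oas1g at 0, 0.092 and 0.166 CPM, could be tested through the silenced libraries alone. The share and the median of this list therefore lean towards rises. Without the block 1 of them passed, Apol9a, and 40 had an unadjusted p under 0.05. The other 5 genes of the list, Ifit1bl2, Oas3, Oasl1, Mx1 and Epsti1, had too few reads to be tested. Isg15, a ubiquitin-like modifier, rose from 0.401, 2.35 and 9.02 to 59.9, 45.5 and 201 CPM (4.80, SE 0.41, adjusted p = 0.00313 with and 0.101 without the block, edgeR). The level of the control with replicate 3 was more than that of the other controls, and its silenced partner stood highest of all 6. Oas1a, a synthase of 2′-5′ oligoadenylate that switches on RNase L, rose from 0.201, 0.276 and 0.830 to 9.22, 8.46 and 48.5 CPM, and Ifit1, which binds foreign RNA ends, from 0.735, 1.98 and 12.9 to 67.2, 34.6 and 276 CPM (5.56 and 4.70, SE 0.23 and 0.37). Xaf1, which favours apoptosis, rose by 2.79 (SE 0.14). Bst2 (tetherin), which holds virus at the cell surface, rose from 10.9, 24.1 and 52.6 to 118, 104 and 343 CPM, and Ifitm3, which hinders entry through endosomes, from 149, 130.0 and 204 to 266, 268 and 484 CPM. Lgals3bp, a secreted glycoprotein, rose from 28.2, 51.1 and 105 to 182, 221 and 519 CPM. Oas1a, Oas1g, Ifit3, Ifit3b, Apol9a and Apol9b share sequence with close copies, and how reads were divided between them is not known.

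Guanylate-binding proteins and immunity-related GTPases, which attack the vacuoles of intracellular pathogens, rose in all 14 tested genes with the block. The share over all genes was 8.92%. The median was 2.59 without the block, and in 9 of the 14 the silenced libraries were higher without overlap, as in 14.1% of all genes. Low genes of this list, too, could be tested through the silenced libraries alone, which leans the share and the median towards rises. The other 3 genes of the list, Gbp4, Gbp8 and Gbp10, had too few reads to be tested. Irgm1, a regulator of this family, was at 45.6, 32.5 and 96.7 CPM in controls and at 150.4, 81.7 and 284 CPM after silencing, where the control with replicate 3 exceeded the silenced library with replicate 2 although each pair rose (1.53, SE 0.10, adjusted p = 9.5e-05 with and 0.219 without the block, edgeR). Gbp3 rose from 0.401, 1.38 and 6.08 to 12.6, 11.8 and 69.9 CPM and Iigp1 from 0.267, 1.75 and 2.16 to 3.76, 15.3 and 43 CPM (3.60 and 3.76, SE 0.24 and 0.25). For MHC class I and the loading of its peptides, 17 of 22 tested genes rose with the block (77.3%) and none fell. The median was 0.85 without the block. H2-K1, a classical heavy chain, rose from 21.1, 29.8 and 49.1 to 109, 123 and 305 CPM, and B2m, the light chain, from 294, 275 and 376 to 392, 448 and 923 CPM (2.35 and 0.81, SE 0.13 and 0.16). Tap1, a subunit of the peptide transporter, went from 16.6, 21.3 and 36.1 to 28.5, 35 and 93.8 CPM with groups that overlapped, and the immunoproteasome subunit Psmb8 from 0.401, 0.552 and 2.88 to 2.91, 3.56 and 23.6 CPM. The general chaperones Canx and Pdia3 did not pass (-0.07 and -0.09), while Calr rose by 0.39. Reads of the H2 genes may be divided between similar copies.

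Pair 3 carried the highest levels of these genes, yet the median difference was positive in each pair. The median difference over the effectors was 1.64, 1.33 and 2.35 in pairs 1, 2 and 3, and over the GTPases 2.06, 1.55 and 2.55. Without the library of P16 shRNA replicate 3, and with no block, the median log2 fold change went from 2.32 to 1.39 over the effectors, from 2.59 to 1.62 over the GTPases, from 0.85 to 0.42 over the MHC class I genes and from 0.60 to 0.39 over the sensors. With pair 3 left out of the block, 38 effectors, 10 GTPases, 9 MHC class I genes, 7 sensors and 6 genes for receptors and signalling were still called higher. DESeq2's Wald test with the block called 41, 14, 17, 11 and 9 of them.

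The element bound by the complex with STAT2 and IRF9 was searched in the same promoters as GAAA, any 2 bases and GAAA again, on both strands, where neighbouring matches can overlap. It stood in 3.44% of all promoters and in 3.68% of the tested genes. The share was 8.88% among genes called higher with the block and 3.12% among those called lower. Of the effectors with a promoter in the table, 21 of 40 held it (52.5%), of the GTPases 9 of 10 (90.0%), of the sensors 6 of 17 (35.3%), of the MHC class I genes 5 of 18 (27.8%) and of the genes for receptors and signalling 3 of 19 (15.8%). It was in 0 of 31 replication genes. The effectors and GTPases were listed as known interferon-induced genes, and the genes of the other lists by their function. A high share therefore describes the lists and was not tested. Stretches of 30 bases before the starts of 8 genes that rose, each on the strand of its gene with the match in capitals, are given below.
Isg15, chr4:156200865-156200894 on the minus strand, match ending 56 bases before the start: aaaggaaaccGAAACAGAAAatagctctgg
Ifit1, chr19:34640775-34640804 on the plus strand, 94 bases before: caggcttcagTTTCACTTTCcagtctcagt
Oas1a, chr5:120907526-120907555 on the minus strand, 10 bases before: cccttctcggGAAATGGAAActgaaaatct
Stat2, chr10:128270266-128270295 on the plus strand, 212 bases before: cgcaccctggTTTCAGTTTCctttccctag
Cxcl10, chr5:92349083-92349112 on the minus strand, 203 bases before: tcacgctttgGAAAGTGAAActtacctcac
Gbp2, chr3:142620594-142620623 on the plus strand, 49 bases before: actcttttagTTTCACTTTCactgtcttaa
Gbp3, chr3:142559989-142560018 on the plus strand, 35 bases before: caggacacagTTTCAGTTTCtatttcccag
B2m, chr2:122147538-122147567 on the plus strand, 129 bases before: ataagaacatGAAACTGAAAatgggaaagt
The capitals hold GAAA on the strand of the gene in Isg15, Oas1a, Cxcl10 and B2m, and as the reverse complement TTTC in the other 4. Cxcl10 and Oas1a had the largest rises of the 8 with the block (4.84 and 5.56, in this order) and B2m the smallest (0.81).

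Chemokine genes rose in 5 of 12 tested genes with the block and fell in 1 (41.7% and 8.33%, against 8.92% and 9.90% of all genes). Cxcl10, which attracts T cells, rose from 0.535, 0.184 and 0.940 to 10.2, 6.01 and 32.4 CPM (4.84, SE 0.24, adjusted p = 3.2e-05 with and 0.0682 without the block, edgeR), and Ccl5 from 0.201, 0.506 and 0.387 to 1.48, 1.61 and 5.39 CPM. Ccl2, which recruits monocytes, was at 132, 21.2 and 71.2 CPM in controls and at 359.5, 204 and 310.3 CPM after silencing (2.25, SE 0.39). Ccl9 rose from 4.01, 1.38 and 1.66 to 15.6, 20.04 and 11.9 CPM and passed without the block as well (adjusted p = 0.0429, edgeR). For Ccl9 replicate 2 was the highest silenced library, unlike the 12 plotted genes of the interferon pathway, in which it was replicate 3. Cx3cl1, a membrane-bound chemokine of endothelium, fell by 0.96 (SE 0.11), lower in each pair with groups that overlapped. Cxcl12, the most abundant chemokine transcript in CPM, did not pass (0.12, SE 0.10). In the block without pair 3, 3 chemokine genes were called higher and 1 lower.

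Genes of the senescence-associated secretory phenotype, the inflammatory and matrix-degrading factors that senescent cells release, went both ways. Of 33 tested, 10 rose and 7 fell with the block (30.3% and 21.2%, against 8.92% and 9.90% of all genes). Il6 rose from 12.8, 7.26 and 8.85 to 39.7, 17 and 32.5 CPM without overlap (1.58, SE 0.15), and Timp1 and Csf1 rose by 0.61 and 0.53. Among those that fell were Icam1, an adhesion molecule for leukocytes (-1.13, SE 0.12), the stress cytokine Gdf15 (-1.11, SE 0.15) and Timp2 (-0.50, SE 0.10). Il1a, Il1b and Tnf had too few reads to be tested. Leaving out pair 3 left 7 genes of this list higher and 3 lower. In the NF-kB list, 6 of 19 genes rose and 3 fell (31.6% and 15.8%). The inhibitors Nfkbia and Tnfaip3 rose by 0.56 and 0.40, Rel fell by 0.77, and Vcam1 did not pass (-0.12, SE 0.23). Without pair 1, 2 or 3 the block called 4, 1 and 2 genes of the NF-kB list higher and 3, 5 and 1 lower. Of 10 tested genes for caspases and lytic cell death, 6 rose (60.00%) and none fell with the block, among them Casp4, the receptor of cytosolic lipopolysaccharide, from 9.29, 6.16 and 8.30 to 14.4, 16.4 and 22.1 CPM (1.16, SE 0.18), and the necroptosis effector Mlkl (0.76). Without pair 2 the block called 2 of them and 1 without pair 3.

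**Figure D3:**
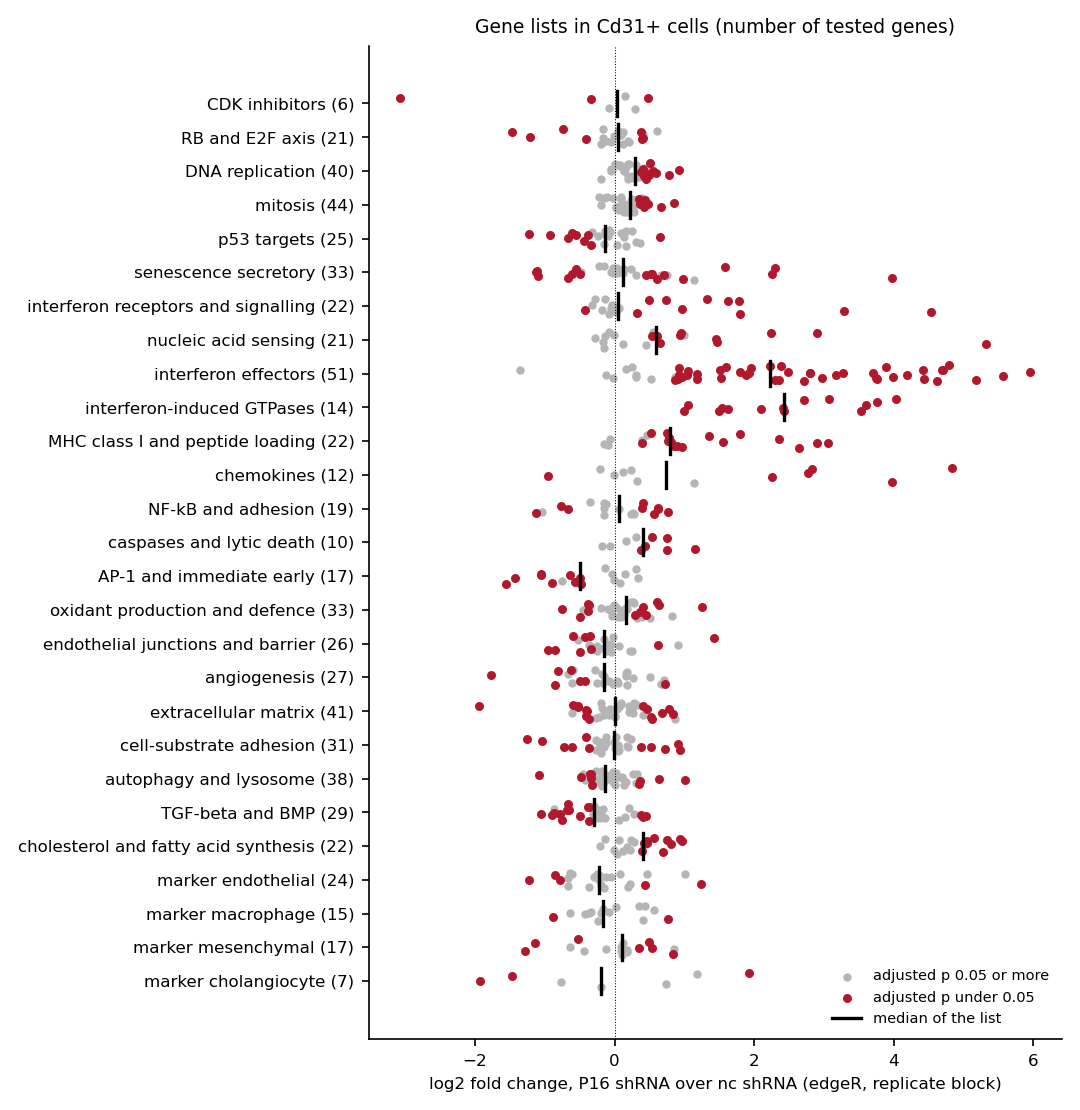
Log2 fold change with the replicate block of every tested gene in 27 lists, with the number of genes beside each name. Red points passed an adjusted p of 0.05 over all genes and grey points did not, and the black bar is the median of the list. Effectors, GTPases, sensors and MHC class I genes lie to the right, AP-1 and TGF-beta genes mostly to the left.

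Immediate early genes, which respond within minutes to growth factors and stress, fell in 9 of 17 tested genes with the block and rose in none (52.9% against 9.90% of all genes). The median was -0.52 without the block. None passed without the block, where 7 had an unadjusted p under 0.05. Fos, a subunit of AP-1, fell from 40.8, 67.6 and 81.9 to 16.3, 28.6 and 24.9 CPM with no overlap (-1.43, SE 0.12, adjusted p = 0.000233 with and 0.0844 without the block, edgeR). Egr3 fell from 14.4, 14.5 and 26 to 4.08, 6.90 and 7.47 CPM, and Egr1, at a higher CPM, from 302, 528 and 545 to 184, 352 and 358 CPM with overlap between the groups. Dusp1, a phosphatase that ends MAP kinase signals, fell from 149, 124 and 197 to 73.3, 56.4 and 98.2 CPM (-1.05, SE 0.09). Junb, Jund and Fosl2 did not pass, with changes of 0.30, -0.03 and -0.01. Without pair 2 or pair 3, 6 of the list were called lower.

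Genes of TGF-beta and BMP signalling fell in 12 of 29 tested genes with the block and rose in 3 (41.4% and 10.3%, against 9.90% and 8.92% of all genes). The median was -0.33 without the block. Tgfbr2, the receptor that binds TGF-beta, fell from 240.0, 221 and 293 to 159, 113 and 134 CPM (-0.90, SE 0.11, adjusted p = 0.00154 with and 0.0604 without the block, edgeR). Eng, an endothelial co-receptor, fell from 124, 195 and 302 to 61.8, 145 and 162 CPM with groups that overlapped. The ligand Bmp4 changed by -0.66 (SE 0.09), lower in each pair, and the inhibitory mediator Smad6 fell from 131, 226 and 198 to 64.4, 112 and 89.9 CPM. Of the target genes, Id2 fell by 0.68 and Id3 fell by 0.38, while Id1 and Smad7 did not pass, with changes of -0.30 and -0.16 (adjusted p = 0.136 and 0.322 with the block, edgeR). Zeb1, a transcription factor of mesenchymal transition, fell from 92, 78.1 and 86.3 to 51.7, 54.4 and 54.2 CPM and passed without the block (adjusted p = 0.0338, edgeR). Of the list, 8 genes were called lower without pair 3.

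In the endothelial junction and barrier list, 7 of 26 genes fell with the block and 2 rose. The shares were 26.9% and 7.69%, against 9.90% and 8.92% of all genes. Cav1, the coat protein of caveolae, fell from 633, 513 and 525 to 319, 291 and 251 CPM with and without the block (-0.96, SE 0.14, adjusted p = 0.0310 without it, edgeR). Ctnna1, the alpha-catenin of adherens junctions, changed by -0.42 with the block (SE 0.09), lower without overlap. Cgn, cingulin of tight junctions, and Nectin2, an adhesion molecule, rose by 1.42 and 0.62 (SE 0.21 and 0.09). Cdh5, the cadherin of endothelial junctions, was at 58.3, 58 and 118 CPM in controls and at 46.2, 73.8 and 91.8 CPM after silencing and did not pass (-0.12, SE 0.14). Without pair 3 the block called 1 of the list lower. For angiogenesis, 6 of 27 genes fell and 1 rose with the block (22.2% and 3.70%). Without pair 3 these numbers were 2 and 0. Adam10, the protease that cleaves Notch, fell from 417, 479 and 393 to 126, 129.8 and 122 CPM (-1.77, SE 0.11, adjusted p = 0.00444 without the block, edgeR), Hes1, a Notch target, fell by 0.62, and Vegfc, a growth factor of lymphatic vessels, rose by 0.73. Other Notch genes had changes in both directions without the block: Hey1 0.30, Jag1 0.16, Notch4 0.59, Hey2 -0.30, Jag2 -0.29 and Notch1 -0.14. Notch signalling was not tested.

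Extracellular matrix genes moved in both directions, 7 up and 8 down of 41 tested with the block (17.1% and 19.5%, against 8.92% and 9.90% of all genes). The fibrillar collagen genes Col3a1 and Col5a2 rose, Col3a1 from 4146, 3012 and 3964 to 9619, 4588 and 6465 CPM and Col5a2 from 5212, 4822 and 4926 to 9868, 7923 and 7993 CPM (0.84 and 0.78, SE 0.13 and 0.09), neither with overlap. Col1a1, also of a fibrillar collagen, and the basement membrane genes Col4a1 and Col4a2 did not pass (0.10, -0.19 and -0.08). Efemp2 (fibulin-4), which brings lysyl oxidase to elastin, had 248, 269.7 and 276 CPM in controls and 61.5, 75.4 and 69.5 CPM after silencing (-1.95, SE 0.12, adjusted p = 0.00444 without the block, edgeR), lysyl oxidase itself, Lox, fell by 0.52, Fbln5 fell by 0.53 and Fbln2 fell by 0.60 (SE 0.09, 0.09 and 0.10), while Eln, elastin, and Loxl1, a relative of Lox, did not pass (0.04 and 0.41). With pairs 1 and 2 alone, 3 matrix genes were called higher and 1 lower. Some genes for collagen-modifying proteins of the endoplasmic reticulum are named here because they passed without the block, which says nothing of that group as a whole. Plod1 and Plod2, lysyl hydroxylases, rose by 1.10 and 0.83 (SE 0.17 and 0.13), the prolyl hydroxylases P3h1 and P4ha2 by 0.71 and 0.63, and the chaperone Fkbp10 by 0.64 (adjusted p between 0.0340 and 0.0393, edgeR). In the list of adhesion to the substrate 5 of 31 genes rose and 6 fell with the block (16.1% and 19.4%). Itga5, the fibronectin receptor chain, rose from 469, 296 and 312 to 841, 598 and 600.1 CPM, Itgb3 by 0.90, and the laminin receptor chain Itga6 fell from 51.7, 40.8 and 41.5 to 29.98, 26.9 and 24.2 CPM. Without pair 3 the block called 2 of this list higher and 1 lower.

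Enzymes of cholesterol and fatty acid synthesis rose in 11 of 22 tested genes with the block (against 8.92% of all genes) and fell in none. The median was 0.42 without the block. Fdft1, squalene synthase, was at 39.8, 18.7 and 26.3 CPM in controls and at 82.2, 31.9 and 55.5 CPM after silencing (0.97, SE 0.10, adjusted p = 0.000617 with and 0.256 without the block, edgeR). Srebf2, a regulator of the pathway, rose by 0.46 (SE 0.09). The groups overlapped in both of these genes, and replicate 1 was the highest library of each group. Without pair 3 the block called 2 of the list. Of 33 genes for the production of and defence against oxidants, 7 rose and 5 fell (21.2% and 15.2%, against 8.92% and 9.90%). The peroxiredoxin genes Prdx6 and Prdx4 rose by 0.63 and 0.60 and Prdx1 and Prdx2 did not pass (0.09 and 0.27), while Hmox1, which degrades haem, fell from 147, 142 and 244 to 115, 70.6 and 132 CPM. Without pair 3 the block called 2 of these genes higher and none lower. For autophagy and the lysosome, 4 of 38 genes rose and 6 fell (10.5% and 15.8%, against 8.92% and 9.90%). Gabarapl1, which coats autophagosomes, rose from 67.2, 66.7 and 72 to 163, 119.5 and 134 CPM and Lamp2, a membrane protein of lysosomes, fell from 593, 435 and 463 to 242, 222 and 232 CPM, both also without the block (adjusted p = 0.0236 and 0.0223, edgeR). Ctsb, a lysosomal protease, rose by 0.63. Leaving out pair 3 left 2 of the autophagy list higher and 1 lower.

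Genes past the test without the block came from many functions. Over the 131 lower genes the median log2 fold change was -0.89 and over the 55 higher ones 0.79. Among the lower genes with the smallest p, beside Efemp2, Adam10 and Dpysl2, was Gnai2, an inhibitory G protein subunit, at 487, 525 and 577 CPM in controls and 148, 163 and 171 CPM after silencing (-1.72, SE 0.11). Sulf2, which trims sulfate from heparan sulfate, fell from 237, 233 and 301 to 63.8, 74.1 and 84.2 CPM, and Hdgf, a growth factor, from 202, 289 and 265 to 68.5, 80.5 and 77.5 CPM. All 3 silenced libraries of these genes lay below all 3 controls. Nedd4, a ubiquitin ligase, fell from 2365, 2033 and 1987 to 889, 833 and 716 CPM (-1.39, SE 0.13, adjusted p = 0.0155, edgeR), Irs2, an adaptor of insulin signalling, from 63.1, 58.6 and 60.6 to 33.3, 34.3 and 32.6 CPM, and Tollip, a negative regulator of Toll-like receptor signalling, from 98, 106 and 99.2 to 46.5, 53.1 and 47.2 CPM. Dpysl2, which regulates microtubules, fell by 1.51 whereas its relative Dpysl5 rose by 1.45 (SE 0.10 and 0.20). Among the higher genes, Hmgb2, a chromatin protein, rose from 43.2, 48.2 and 45.6 to 83.4, 76.7 and 93 CPM and Rnf149, a ubiquitin ligase, from 29.2, 28.6 and 30.9 to 91.2, 69.1 and 74.2 CPM (0.88 and 1.40, SE 0.11 and 0.13). Lgmn, a lysosomal protease, went from 84.6, 71.1 and 71.8 to 166, 136 and 137 CPM and Pla2g15, a lysosomal phospholipase, from 58.9, 55.6 and 68.8 to 148, 119 and 149 CPM. Tulp3, which carries receptors into primary cilia, rose by 0.79, and Tmem97, a receptor involved in sterol transport, by 0.79 (SE 0.09 and 0.11). The number of calls fell with fewer libraries. When 1 library was left out, the log2 fold change of Efemp2 lay between -2.02 and -1.88 and that of Adam10 between -1.83 and -1.70. That of Rnf149 lay between 1.27 and 1.48 and that of Tulp3 between 0.75 and 0.81. These genes were picked for a small p on the same libraries, so their small movement follows in part from the choice and does not measure robustness. Without any 1 silenced library 0 genes passed, with 1990, 2477 and 2017 genes with unadjusted p under 0.05 in the absence of replicate 1, 2 and 3, and without nc shRNA replicate 1, 2 or 3 the number of genes with adjusted p under 0.05 was 64, 36 and 7 (edgeR without the block). DESeq2's Wald test without the block called 1096 genes on all 6 libraries. By size of the change with the block, the lower genes were led, after Cdkn2a, by Ptprz1, a receptor phosphatase, which fell from 9.43, 2.62 and 10.2 to 1.17, 0.390 and 2.30 CPM, and by Aldh1a3, an enzyme of retinoic acid synthesis, from 3.88, 9.88 and 10.9 to 1.43, 2.73 and 1.66 CPM. Arc, itself an immediate early gene, fell by 2.01, Slc2a13, a myo-inositol transporter, by 1.99 and Rhpn2 by 1.78 on the log2 scale with the block, and none of these 5 passed without it.

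**Figure D4:**
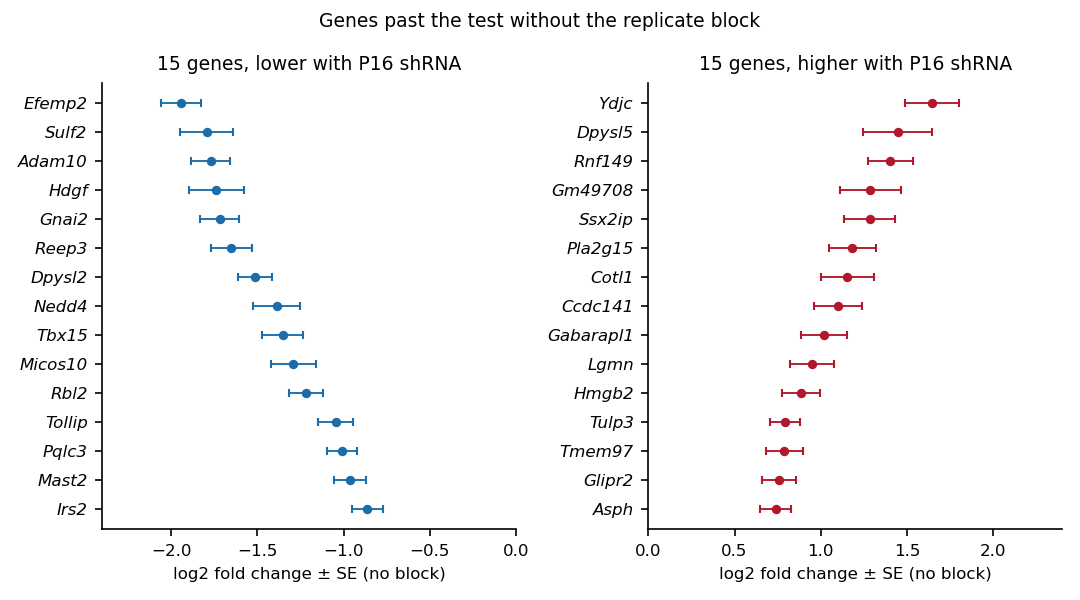
Log2 fold change with its SE, without the replicate block, of the 15 lower genes (left) and the 15 higher genes (right) with the smallest p among those with an adjusted p under 0.05. The lower genes lie between -1.95 for Efemp2 and -0.86 for Irs2, the higher ones between 0.74 for Asph and 1.65 for Ydjc.

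Of the genes chosen for RT-PCR in the same cells, those that stand for a single mouse symbol were listed here, 40 in all, and the other targets were not. Of these 30 could be tested, 11 rose and 8 fell with the block (36.7% and 26.7%, against 8.92% and 9.90% of all genes). They were picked on these samples, so that their counts are not independent evidence. Without pair 3 the block called 7 higher and 2 lower. Without the block, Ccl9 and Cdkn2a passed. Beside the genes described above, Anapc2, a subunit of the ubiquitin ligase that ends mitosis, fell from 123, 126 and 139 to 101, 95.9 and 95.4 CPM, and Igf1r from 184, 178 and 188 to 109.6, 137 and 112 CPM (-0.41 and -0.62, SE 0.09 and 0.10), both without overlap. Mafk, a partner of stress-response factors, fell by 0.49, and Mmp12, a macrophage elastase, from 9.62, 3.40 and 3.76 to 3.28, 2.50 and 1.61 CPM.

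Silencing was compared with the same contrast in Cd146+ cells (3 libraries with P16 shRNA and 3 with nc shRNA) by an interaction term over these 12 libraries. Of 15676 genes tested, 0 (0%) differed between the populations at an adjusted p under 0.05 (edgeR), and before adjustment 168 (1.07%) had a p under 0.05. The replicate block and DESeq2's Wald test also called 0 genes, against 522 and 181 before adjustment. In Cd146+ cells the replicate numbers of the P16 shRNA and nc shRNA libraries matched only in part. Libraries without a partner of the same number add nothing to the blocked difference, which rests on fewer Cd146+ libraries. A missing call does not show equal effects, and the SE of single genes was wide. For Cdkn2a the log2 fold change was -3.08 in Cd31+ and -3.21 in Cd146+ cells (difference 0.13, SE 0.65). Isg15 had 4.69 against 6.18 (difference -1.47, SE 1.32), Irf9 1.78 against 2.00 (-0.21, SE 0.58), and Gbp3 3.57 against 2.69 (0.90, SE 1.67). Efemp2 had -1.95 against -1.94 (-0.01, SE 0.32) and Rbl2 -1.22 against -1.78 (0.57, SE 0.28). The median over the interferon effectors was 2.32 in Cd31+ and 2.90 in Cd146+ cells, over the replication genes 0.30 and 0.65, over the mitotic genes 0.22 and 0.71, and over the immediate early genes -0.52 and -0.44. Each median was taken over the genes tested in that population, 51 and 54 for the effectors, so that the sets can differ. The medians of these lists had the same sign in both populations. Other lists had medians of opposite sign in Cd31+ and Cd146+ cells. Among them were angiogenesis (-0.14 and 0.07), extracellular matrix (0.01 and -0.22) and endothelial markers (-0.30 and 0.18).

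**Figure D5:**
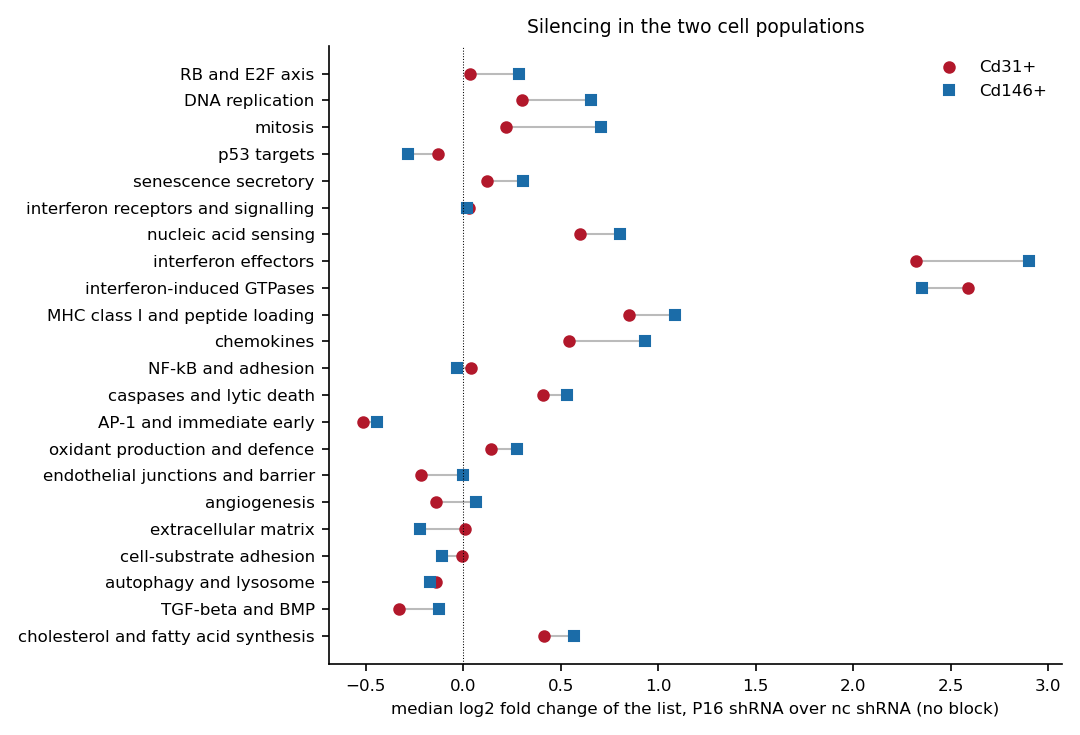
Median log2 fold change of P16 shRNA over nc shRNA, without the block, for 22 gene lists in Cd31+ cells (circles) and Cd146+ cells (squares), over the genes tested in each. Effectors and GTPases lie farthest to the right in both populations, the immediate early genes farthest to the left, and no gene passed the test of the difference.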

How the data were processed

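RNA of cultured Cd31+ mouse liver cells was sequenced in 3 libraries with nc shRNA and 3 with P16 shRNA, grouped by construct and population as labelled. The authors deposited raw read counts per gene for 56748 genes, made by a sequencing provider with fastp and mm9 per the submitters' processing notes. The counting tool is not given in the sources used here, and since both a directional and a non-directional library protocol are described, the use of strand is not settled. The FPKM values, deposited by the authors in the same table, were used only to compare levels between genes. The deposited tables also hold the authors' own log2 fold changes, p-values and adjusted p-values, which were not used here.

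Counts were tested with edgeR 4.0.16 in R 4.3.3 (filterByExpr, TMM, robust quasi-likelihood fit, Benjamini-Hochberg adjustment), without a block as the main fit and with the replicate number as a block. The numbers pair the libraries: deviations from the group means correlated at 0.600, 0.711 and 0.669 for equal numbers. For unequal numbers the correlations lay between -0.379 and -0.257. Deviations cancel within a group, so these negative values follow from the positive ones and add no evidence. The steps were run on simulated counts in which the changes and the spread were set by hand. The simulated difference between populations held no pairing. These runs do not show how the fits perform on the present libraries. DESeq2 1.42.0, other filters, size factors, a fit over 12 Cd31+ libraries and leaving out libraries or pairs were the alternatives, and DESeq2 with the block was added after seeing the data. Differences within pairs used log2(CPM + 0.5).

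The members and lists were chosen with earlier results of these data known. Named were Cdkn2a, the RT-PCR genes and, in each direction, the 15 genes with the smallest p among calls without overlap. The 10 with the largest change in the block fit were added, without overlap and with at least 5 CPM in the higher group. Each list gave its 5 most abundant genes and the 5 with the smallest p in the block fit. Any member of lists of up to 24 genes could be named, and the choice was narrowed afterwards. Outside this rule, Cdh5, Col4a1, Col4a2, Mcm5, Orc1, Zeb1, Stab2, Clec4g, Mcm4, Mcm7, Id1, Smad7, Eln, Loxl1, Prdx1, Prdx2 and the collagen-modifying enzymes were named after their values were seen. Stab1, Lyve1 and Fcgr2b, and the Notch genes beside Adam10 and Hes1, were also named after their values were seen. Promoter sequences came from RefSeq (GRCm38.p6), a build other than mm9, and were matched by symbol. Gene positions are as the deposited table lists them and their build was not settled.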

Additional observations from a re-analysis of the deposited data

How the results depend on the processing

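Without the block, genes with adjusted p under 0.05 numbered 186. The number was 1294 when all genes with at least 1 count were tested, 1096 with DESeq2's Wald test, 373 in one fit over 12 Cd31+ libraries, 2586 in that fit with the replicate block, 2703 with the replicate block alone, and 2203 with DESeq2's Wald test and the block, an alternative chosen after seeing the data. Leaving out 1 library gave 0 to 64 genes. In the replicate block, leaving out pair 1, 2 or 3 gave 3414, 1468 and 741. The genes with unadjusted p under 0.05, 2843 without the block, numbered 4871 with the replicate block, 4795 over 12 libraries with the block and 5120 with the block and without pair 1. For Cdkn2a the log2 fold change stayed negative, from -3.39 to -2.81 when 1 library was left out, and its adjusted p rose above 0.05 in 5 of these 6 fits. The causes were not tested. The filter at a mean of 10 counts and DESeq2 size factors left 181 and 184 genes. The split of the calls moved with these settings: 55 higher and 131 lower without the block became 630 and 664 with all genes of at least 1 count, 485 and 611 with DESeq2's Wald test, 136 and 237 over 12 libraries, 1281 and 1422 with the replicate block, and 393 and 348 in the block without pair 3. None of the 51 genes followed through the alternatives for the Cd31+ contrast changed direction. Apart from Cdkn2a they were picked on these same libraries, and in none of the 51 did the groups overlap. A change of direction was therefore unlikely from the choice alone, and the count does not measure robustness. The median log2 fold change of 11 of 30 lists changed direction. With 1 library left out it ranged from -0.20 to 0.14 for CDK inhibitors, -0.061 to 0.15 for the RB and E2F axis, -0.011 to 0.16 for interferon receptors and signalling, -0.15 to 0.21 for NF-kB and adhesion, -0.10 to 0.13 for extracellular matrix, -0.14 to 0.047 for cell-substrate adhesion, -0.15 to 0.013 for the RT-PCR genes, -0.75 to 0.43 for endothelial, -0.62 to 0.33 for macrophage, -0.24 to 0.45 for mesenchymal and -0.85 to 0.079 for cholangiocyte markers. In the block, leaving out pair 1 gave -0.12 for CDK inhibitors and 0.022 for macrophage markers, pair 2 gave -0.031 for the RB and E2F axis and -0.10 for extracellular matrix, and pair 3 gave -0.043 for the RB and E2F axis, 0.023 for cell-substrate adhesion, 0.038 for endothelial and -0.014 for mesenchymal markers. With DESeq2's Wald test and the block the median of extracellular matrix was -0.0033, and with all genes of at least 1 count that of cell-substrate adhesion was 0.0042. For the difference between the populations 0 genes passed with the replicate block, DESeq2 size factors, DESeq2's Wald test and each of 12 libraries left out. With 3 libraries a group, small changes and genes near the floor of 3 reads could not be resolved.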
